A study of Mus musculus with 8 samples.

Results

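Xdh, Lias, Ppat, Dpyd, Etfdh, Cisd1, Cisd2, Abce1 and Nthl1 encode proteins that hold an iron-sulfur cluster and are not subunits of respiratory complexes I to III. The 9 genes were taken by symbol from the array's annotation and had 22 probe sets, out of 18193 genes and 45101 probe sets in all. RNA came from the hearts of female mice on single Affymetrix mouse arrays, in 4 groups of 2 mice: knock-outs (KO) at 10 weeks of age, wild types (WT) at 10 weeks, KO at 4 weeks and WT at 4 weeks. KO mice carried a conditional gene deletion under MCK, the muscle creatine kinase driver, which is active in cardiomyocytes and skeletal muscle, so that the other cell types of the heart keep the gene. Littermates made up each age, so a difference between the ages cannot be told apart from one between litters or processing days. Nothing in the labels describes any treatment, and each mouse is 1 array.

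Iron-sulfur clusters are small groups of iron and sulfide atoms held by cysteine or histidine side chains. Their making begins in mitochondria, and proteins there, in the cytosol and in the nucleus hold them. In these proteins they carry electrons, take part in radical chemistry or hold a fold in place. The best known users in the heart are complexes I to III, but enzymes of purine, pyrimidine and lipoate metabolism, a membrane dehydrogenase of fatty acid oxidation, a ribosome-splitting ATPase and a DNA glycosylase use them too. The question asked here was whether the mRNA levels of these proteins differed between KO and WT hearts at either age.

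At 10 weeks 3 of the 9 genes were lower in KO hearts and 1 was higher. Xdh, Etfdh and Cisd1 fell and Abce1 rose, in limma's moderated test where a call is an adjusted p (Benjamini-Hochberg, over 18193 genes) under 0.05. Of all genes, 6.89% were called lower and 5.19% higher by the same rule, 12.1% in all. The median difference, KO minus WT, was -0.44 on the log2 scale over the 9 genes and 0.00485 over all genes. KO and WT arrays did not overlap for 8 of the 9 genes, 6 with KO below and 2 with KO above, where 47.1% of all genes did not overlap, 23.5% with KO below and 23.7% with KO above. The 4 calls were reduced to 1 (Xdh) without 10-week KO replicate 1, and to 2 without 10-week WT replicate 1 (Xdh and Etfdh) or without either 4-week WT array (Xdh and Cisd1). With the arrays quantile normalized again the calls were 2 lower (Xdh and Cisd1) and 2 higher (Lias and Abce1), and with the arrays centred on their medians 3 lower and 0 higher. With shared-sequence probe sets left out they were 3 lower (Xdh, Etfdh and Cisd1) and 2 higher (Lias and Abce1). Shared-sequence probe sets are those with names ending in _s_at, _x_at or _a_at, so sequence shared among transcripts of 1 gene counts too.

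**Figure D1:**
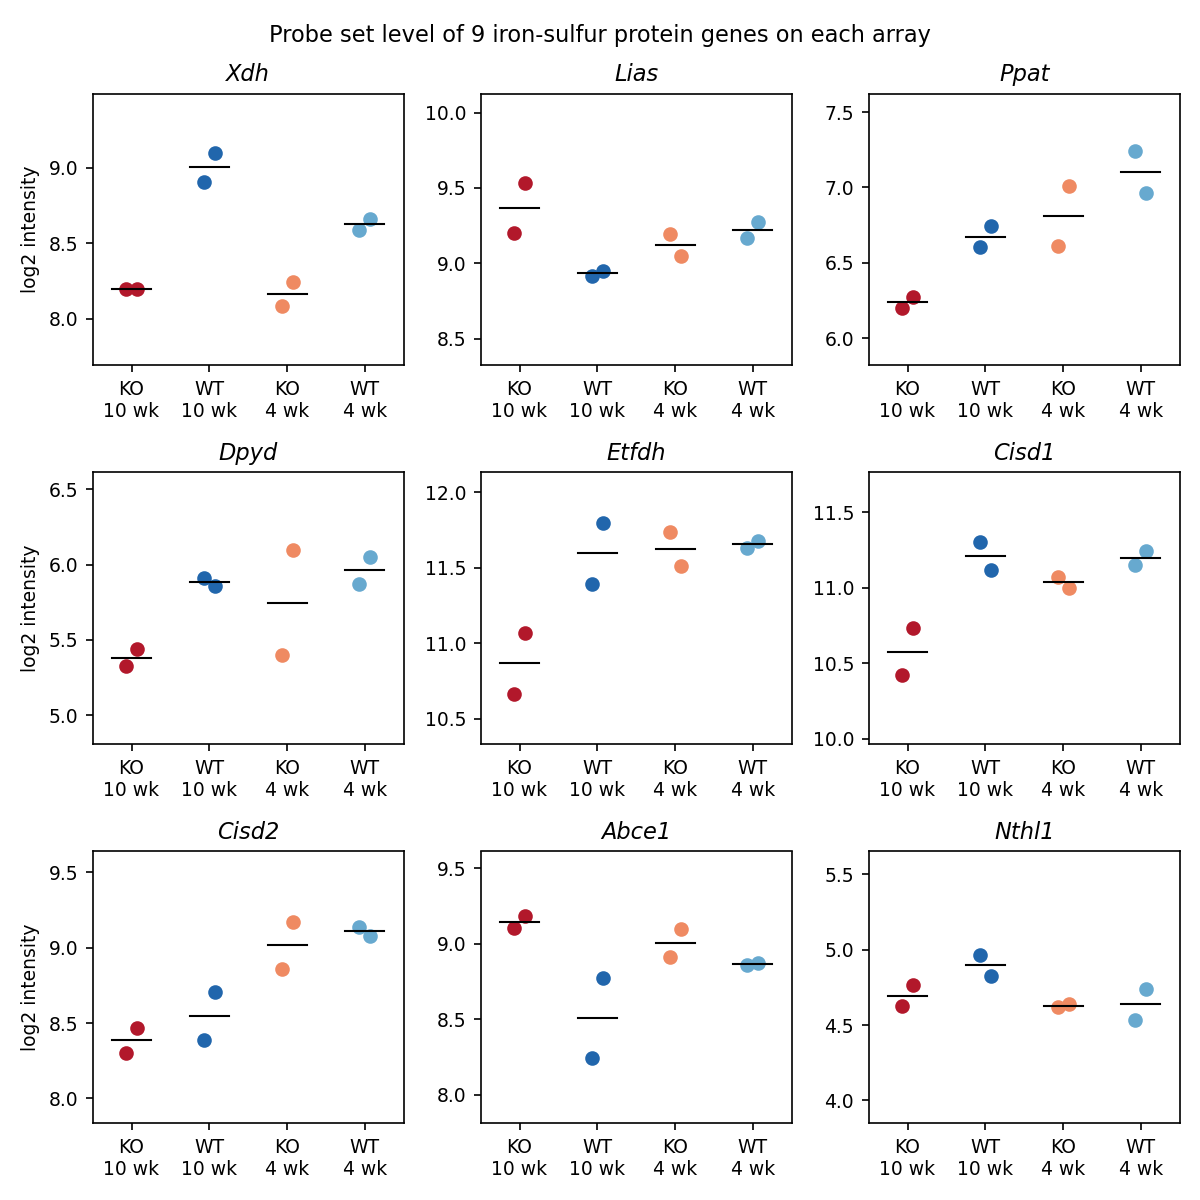
Log2 intensity of the probe set used for each of the 9 genes on each of the 8 arrays (points), with the group mean (line); groups run from KO and WT at 10 weeks to KO and WT at 4 weeks, and every panel spans the same number of log2 units. The KO points of Xdh lie below the WT points at both ages, while those of Etfdh and Cisd1 stand well below WT at 10 weeks and close to WT at 4 weeks.

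At 4 weeks none of the 9 genes passed the test in either direction, where 0.0275% of all genes were called, all of them higher, and 0% lower. Xdh alone had an unadjusted p under 0.05, and 679 of all genes had one. The median difference was -0.10 over the 9 genes and 0.01 over all genes. KO and WT arrays did not overlap for 3 of the 9 genes (Xdh and Cisd1 with KO below, Abce1 with KO above), against 36.9% of all genes, 17.5% with KO below and 19.4% with KO above.

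Among the enzymes of nucleotide metabolism, Xdh encodes xanthine dehydrogenase, which oxidises hypoxanthine to xanthine and xanthine to uric acid at the end of purine breakdown, and in several mammals is known from the capillary endothelium of the heart. Xdh read log2 8.19 and 8.20 in 10-week KO hearts, against 8.91 and 9.10 in 10-week WT hearts. At 4 weeks it read 8.08 and 8.25 in KO hearts, against 8.59 and 8.66 in WT hearts. All 4 KO arrays therefore lay below all 4 WT arrays. Xdh fell by 0.81 ± 0.13 (SE) on the log2 scale at 10 weeks, 1.75-fold (limma adjusted p = 0.00338). At 4 weeks the difference was -0.46 ± 0.13, 1.38-fold, and did not pass (adjusted p = 0.955). The difference between the 2 ages was -0.35 ± 0.18 and did not pass either (adjusted p = 0.455). Its call at 10 weeks was kept in each of the 17 other settings tried, with adjusted p of 0.00229 to 0.0339. Xdh has 1 probe set on the array.

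Beside Xdh, of 12 endothelial markers 1 was higher (Emcn, 0.49 ± 0.13) and 1 lower (Esam, -0.73 ± 0.13) in 10-week KO hearts. Of the 12 differences at 10 weeks 10 were negative and 2 positive, with a median of -0.16. At 4 weeks 6 were negative and 6 positive, with a median of 0.006. The summed linear intensity of the 12 was 3024 and 3545 in 10-week KO hearts, against 3090 and 4070 in 10-week WT hearts, and 4362 and 4532 in 4-week KO hearts, against 4052 and 4519 in 4-week WT hearts, so KO and WT overlapped at both ages. Of 9 liver and kidney markers Kap was called lower at 10 weeks, and none was called at 4 weeks. All 9 differences were negative at both ages, with medians of -2.06 at 10 weeks and -0.50 at 4 weeks. The sum of the 9 was 320.2 and 439.8 in 10-week KO hearts, against 5787 and 711 in 10-week WT hearts. At 4 weeks that sum was 383 and 4790 in KO hearts, against 1237 and 3404 in WT hearts. Within the 10-week WT pair Xdh read higher on the array with the smaller sum. Within each of the other pairs it read higher on the array with the larger sum, though by little in 10-week KO hearts (8.194 and 8.199). Without 10-week WT replicate 1 the difference of Xdh was -0.90, and the sum on the WT array kept, 711, was still above both 10-week KO sums. The part of either list in the fall of Xdh was not tested.

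Ppat encodes amidophosphoribosyltransferase, which takes the first committed step of purine synthesis. Ppat read 6.20 and 6.27 in 10-week KO hearts, against 6.60 and 6.74 in 10-week WT hearts, which did not overlap. Ppat at 4 weeks read 6.61 and 7.01 in KO hearts, against 7.24 and 6.96 in WT hearts, which overlapped. The difference was -0.44 ± 0.16 at 10 weeks (limma adjusted p = 0.128) and -0.29 ± 0.16 at 4 weeks (adjusted p = 0.999), and neither passed. The probe sets of Ppat disagreed at 10 weeks, so no direction can be given for this gene. The next brightest, at a mean log2 of 5.58, gave 0.26 ± 0.15 and the dimmest, at 4.11, gave -0.12 ± 0.18. Paics, of a later step of the same pathway, starts 276 bases from Ppat on the opposite strand in the RefSeq annotation, and its difference at 10 weeks was 0.04 ± 0.14.

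Dpyd encodes dihydropyrimidine dehydrogenase, which opens the breakdown of uracil and thymine. Dpyd read 5.33 and 5.44 in 10-week KO hearts, against 5.91 and 5.86 in 10-week WT hearts. Dpyd at 4 weeks read 5.40 and 6.09 in KO hearts, against 5.87 and 6.05 in WT hearts, and replicate 1 of the KO pair stood near the 10-week KO level. The difference was -0.50 ± 0.20 at 10 weeks (limma adjusted p = 0.164) and -0.21 ± 0.20 at 4 weeks (adjusted p = 0.999). Without either 4-week KO array the 10-week difference had an adjusted p of 0.0473, since the spread of that pair left the shared estimate. The other probe sets of Dpyd were dim, at means of log2 3.75 and 3.27, and gave -0.24 ± 0.15 and -0.02 ± 0.14 at 10 weeks.

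Of 11 other genes of purine breakdown 2 were higher and 1 lower at 10 weeks, with a median of 0.05. By the same rule 5.19% of all genes were higher and 6.89% lower, the shares to set beside this and every later list at 10 weeks. Ada, which deaminates adenosine, rose 2.01-fold (limma adjusted p = 0.00359) and Gda, guanine deaminase, rose by 0.81 ± 0.18 (adjusted p = 0.0185). Nt5c2, a cytosolic nucleotidase, fell by 0.76 ± 0.17 (adjusted p = 0.017). Its 3 other probe sets, at means of log2 5.66, 5.54 and 4.20, gave -0.27, -0.19 and 0.01. Of 11 other genes of purine synthesis 1 was called, Adssl1, the muscle adenylosuccinate synthetase that joins aspartate to inosine monophosphate. Adssl1 read 11.13 and 11.16 in 10-week KO hearts, against 9.49 and 9.47 in 10-week WT hearts, and rose by 1.67 ± 0.11, 3.18-fold (adjusted p = 5.00e-05). Of 5 other genes of pyrimidine breakdown Upp1, uridine phosphorylase, rose by 0.83 ± 0.13 (adjusted p = 0.00367). The call of Gda needed both 10-week KO replicate 1 (0.64 without it, adjusted p = 0.135) and WT replicate 1 (0.57, 0.0667), and so did that of Nt5c2 (-0.61, 0.124 and -0.67, 0.0578). With shared-sequence probe sets left out Nt5c2 was at -0.27 (0.225). That value came from a dimmer probe set, at a mean log2 of 5.66, against 6.96 for the _a_at probe set used.

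Among the mitochondrial enzymes, Etfdh encodes the inner-membrane dehydrogenase that takes electrons from electron transfer flavoprotein (ETF) and hands them to ubiquinone, the common exit of fatty acid and branched-chain amino acid oxidation. Etfdh read 10.66 and 11.07 in 10-week KO hearts, against 11.39 and 11.80 in 10-week WT hearts. At 4 weeks it read 11.73 and 11.51 in KO hearts, against 11.63 and 11.68 in WT hearts. The 10-week KO arrays were the lowest of the 8, and the 4-week groups overlapped. Etfdh fell by 0.73 ± 0.18 at 10 weeks, 1.66-fold (limma adjusted p = 0.0286), and the difference at 4 weeks was -0.03 ± 0.18 (adjusted p = 0.999). The difference between the ages, -0.70 ± 0.25, did not pass (adjusted p = 0.238). In both 10-week pairs replicate 2 read above replicate 1.

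The call of Etfdh was kept in 10 of the 17 other settings. It was lost without 10-week KO replicate 1 (-0.53, adjusted p = 0.193), 10-week WT replicate 2 (-0.53, 0.0829) or either 4-week WT array (-0.73, 0.0629), with only the 10-week groups (-0.73, 0.114), with quantile normalization again (-0.56, 0.0679) and when its probe sets were averaged (-0.40, 0.0734). Its dim probe set, at a mean log2 of 3.29, gave -0.08 ± 0.12.

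Of 15 genes for ETF and the dehydrogenases that pass electrons to it 7 were lower and 0 higher at 10 weeks, with a median of -0.47. Etfb, the beta subunit of ETF, read 10.10 and 10.33 in 10-week KO hearts, against 11.88 and 11.89 in 10-week WT hearts, and fell by 1.67 ± 0.14, 3.19-fold (limma adjusted p = 0.000138). Gcdh, glutaryl-CoA dehydrogenase of lysine breakdown, fell by 1.13 ± 0.14 (adjusted p = 0.00105) and Acad11, an acyl-CoA dehydrogenase, by 1.06 ± 0.18 (adjusted p = 0.00544). Acad11 lost its call with shared-sequence probe sets left out (-0.95, adjusted p = 0.0575).

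Cisd1 encodes mitoNEET, a protein of the outer mitochondrial membrane whose cluster faces the cytosol. Cisd1 read 10.42 and 10.73 in 10-week KO hearts, against 11.31 and 11.11 in 10-week WT hearts. Cisd1 at 4 weeks read 11.07 and 11.00 in KO hearts, against 11.15 and 11.24 in WT hearts. The 10-week KO arrays were again the lowest of the 8. Cisd1 fell by 0.63 ± 0.14 at 10 weeks, 1.55-fold (limma adjusted p = 0.0182), and the difference at 4 weeks was -0.16 ± 0.14 (adjusted p = 0.999). The difference between the ages was -0.47 ± 0.20 (adjusted p = 0.325).

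All 3 probe sets of Cisd1 were lower in KO at 10 weeks when every probe set was tested singly. The probe sets with means of log2 10.45 and 9.34 gave -0.78 ± 0.17 and -1.56 ± 0.17, so the size of the fall depended on the probe set. The dimmest read 8.13 and 8.56 in 10-week KO hearts, against 10.07 and 9.73 in 10-week WT hearts. The call of Cisd1 was kept in 14 of the 17 other settings and was lost without 10-week KO replicate 1 (-0.48, adjusted p = 0.126) or WT replicate 1 (-0.54, 0.0659), and with only the 10-week groups (-0.63, 0.0959).

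Cisd2 encodes the relative of mitoNEET in the endoplasmic reticulum and at its contacts with mitochondria. Cisd2 read 8.30 and 8.47 in 10-week KO hearts, against 8.39 and 8.71 in 10-week WT hearts, which overlapped. At 4 weeks it read 8.86 and 9.17 in KO hearts, against 9.14 and 9.08 in WT hearts, which overlapped too. The difference was -0.16 ± 0.16 at 10 weeks (limma adjusted p = 0.633) and -0.09 ± 0.16 at 4 weeks (adjusted p = 0.999). Whether Cisd1 and Cisd2 differed in their response was not tested.

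The 250 bases before the gene start are shown for Etfdh and Cisd1 because both genes fell at 10 weeks and both stretches hold the core motif of nuclear respiratory factor 1 (NRF1), a regulator of nuclear genes for mitochondrial proteins. The core searched was GCGCA, any base, then GCGC, on either strand. The sequences are from RefSeq on build GRCm38.p6, written 5′ to 3′ on the strand of the gene, with the motif in capitals. That of Etfdh is chr3:79628768-79629017 and that of Cisd1 chr10:71344850-71345099, both on the minus strand.
Etfdh: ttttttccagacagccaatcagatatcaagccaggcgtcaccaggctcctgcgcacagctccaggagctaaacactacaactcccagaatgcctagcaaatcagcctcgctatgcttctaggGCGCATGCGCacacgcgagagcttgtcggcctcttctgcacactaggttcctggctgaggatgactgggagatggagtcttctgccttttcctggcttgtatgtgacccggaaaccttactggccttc
Cisd1: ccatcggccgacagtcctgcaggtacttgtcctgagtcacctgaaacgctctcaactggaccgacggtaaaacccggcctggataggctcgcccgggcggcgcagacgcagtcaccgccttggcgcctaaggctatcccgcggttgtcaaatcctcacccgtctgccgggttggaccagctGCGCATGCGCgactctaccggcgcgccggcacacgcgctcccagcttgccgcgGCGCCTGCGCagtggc
The motif begins 128 bases before the start in Etfdh, and 69 and 16 bases before it in Cisd1. The match at 16 bases in Cisd1 fits the core only on the opposite strand. Ppat, which was not called, holds it too, 42 bases before its start. It was thus found in 3 of the 8 genes with a listed promoter. Of 32851 mouse promoters of the same length, searched on both strands, 3.74% held it. The core was chosen with the genes' results known, so these shares are descriptions without a test. A palindromic form searched first was held by Etfdh and Cisd1 and not by Ppat. The promoters were not matched for base composition. G and C made up 54.4% of the Etfdh stretch, 67.6% of that of Cisd1 and 65.6% of that of Ppat.

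Lias encodes lipoic acid synthase, a radical enzyme that gives up sulfur from a cluster of its own to make the lipoyl group of pyruvate dehydrogenase and its relatives. Lias read 9.20 and 9.53 in 10-week KO hearts, against 8.92 and 8.95 in 10-week WT hearts, which did not overlap. Lias at 4 weeks read 9.19 and 9.05 in KO hearts, against 9.17 and 9.27 in WT hearts, which overlapped. The difference was 0.43 ± 0.14 at 10 weeks, 1.35-fold, and did not pass (limma adjusted p = 0.0839), and it was -0.10 ± 0.14 at 4 weeks (adjusted p = 0.999). The next probe set of Lias, at a mean log2 of 8.60, read 8.79 and 9.11 in 10-week KO hearts, against 8.40 and 8.32 in 10-week WT hearts. It gave 0.59 ± 0.14, past the threshold when every probe set was tested singly (adjusted p = 0.0248). The third, at a mean log2 of 3.24, gave -0.08 ± 0.11. The 10-week difference of Lias also passed with quantile normalization again (0.54, adjusted p = 0.0278) and, through that next probe set, with shared-sequence probe sets left out (0.59, 0.0236).

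Of 16 genes for lipoate synthesis, cluster delivery to Lias and the lipoylated complexes 4 were lower and 0 higher at 10 weeks, with a median of -0.38. Dbt, the lipoylated core of the branched-chain keto acid dehydrogenase, fell by 0.95 ± 0.14 (limma adjusted p = 0.00254). Glrx5, a glutaredoxin that passes clusters on, fell by 0.92 ± 0.18 (adjusted p = 0.0101) and Gcsh, the lipoylated protein of glycine cleavage, fell by 0.84 ± 0.17 (adjusted p = 0.0119). Glrx5 was no longer called without KO replicate 1 of 10 weeks (-0.90, adjusted p = 0.0668) or KO replicate 2 (-0.94, 0.0541), nor Gcsh without 10-week KO replicate 1 (-0.64, 0.0902).

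Abce1 encodes the cytosolic ATPase that splits ribosomes after termination, and it carries a pair of clusters. Abce1 read 9.11 and 9.18 in 10-week KO hearts, against 8.24 and 8.77 in 10-week WT hearts. Abce1 at 4 weeks read 8.91 and 9.10 in KO hearts, against 8.86 and 8.87 in WT hearts. KO lay above WT at both ages, and replicate 1 of the 10-week WT pair was the lowest of the 8 arrays. Abce1 rose by 0.64 ± 0.17 at 10 weeks, 1.56-fold (limma adjusted p = 0.0412), and the difference at 4 weeks was 0.14 ± 0.17 (adjusted p = 0.999). The difference between the ages, 0.50 ± 0.24, did not pass (adjusted p = 0.423) but passed without 10-week WT replicate 2 (0.77, adjusted p = 0.0342).

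The call of Abce1 was kept in 6 of the 17 other settings, and with single arrays left out only without 10-week WT replicate 2 (0.90, adjusted p = 0.0023). Without 10-week WT replicate 1 the difference was 0.37 (adjusted p = 0.161), and without 10-week KO replicate 1 or 2 it was 0.68 (0.134) and 0.60 (0.18). Without any single 4-week array it stayed at 0.64, with adjusted p of 0.0636 without a KO array and 0.0858 without a WT array, since the shared spread changed. It was not called with only the 10-week groups (0.148), with the arrays centred on their medians (0.0757), with trend and robust settings (0.0531) or when its probe sets were averaged (0.33, adjusted p = 0.221). The next probe set of Abce1 gave 0.51 ± 0.19 (adjusted p = 0.159) and the dimmest, at a mean log2 of 3.51, gave -0.16 ± 0.13.

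The bases before Abce1 are shown because they hold the cyclic AMP response element TGACGTCA, which transcription factors of the CREB and ATF families bind, close to the gene start. The stretch is chr8:79711741-79711990 on the minus strand, from RefSeq on GRCm38.p6, 5′ to 3′ on the strand of the gene, with the element in capitals.
Abce1: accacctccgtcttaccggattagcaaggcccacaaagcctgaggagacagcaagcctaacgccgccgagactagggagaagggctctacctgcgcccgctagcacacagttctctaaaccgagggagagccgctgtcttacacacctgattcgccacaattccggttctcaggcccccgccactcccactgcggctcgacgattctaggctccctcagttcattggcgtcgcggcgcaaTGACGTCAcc
The element begins 10 bases before the start. Of the 8 genes with a listed promoter Abce1 was the only one that held it, and 1.55% of the 32851 promoters did. The amino acid response motif TGATGCAA was in 0 of the 8 (0.791% of all promoters), and TCAAGGTCA, bound by estrogen-related receptors, in 0 of the 8 (0.387%). CCAAT was in 4 of the 8 (33.8%) and the GC box GGGCGG in 5 of the 8 (32.7%). All motifs were searched on both strands, and none of the 17 matches overlapped another. The motifs were chosen with the genes' results known and the promoters were not matched for base composition, so the shares are descriptions without a test.

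Of 10 other genes of translation termination and ribosome recycling 3 were higher and 0 lower at 10 weeks, with a median of 0.08. Eif1a, an initiation factor, rose by 0.79 ± 0.13 (limma adjusted p = 0.00512), and Pelo, which works with Abce1 in the rescue of stalled ribosomes, rose by 0.67 ± 0.17 (adjusted p = 0.0299). Eif6, which keeps the ribosomal subunits apart, rose by 0.50 ± 0.12 (adjusted p = 0.0266), read from an _a_at probe set at a mean log2 of 8.50. The other probe set of Eif6 was dimmer, at 5.68, and gave 0.19 ± 0.12. Pelo lost its call without 10-week WT replicate 1 (0.65, adjusted p = 0.0727), 10-week KO replicate 2 (0.43, 0.182) or either 4-week WT array (0.67, 0.064). Eif6 was no longer called without KO replicate 1 of 10 weeks (0.42, 0.156), KO replicate 2 (0.57, 0.0582), WT replicate 1 (0.50, 0.06) or either 4-week WT array (0.50, 0.0554), and with shared-sequence probe sets left out its difference was 0.19 (0.445).

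Nthl1 encodes a nuclear and mitochondrial DNA glycosylase that removes oxidised pyrimidines. Nthl1 read 4.62 and 4.77 in 10-week KO hearts, against 4.97 and 4.82 in 10-week WT hearts. At 4 weeks it read 4.62 and 4.64 in KO hearts, against 4.53 and 4.74 in WT hearts. The probe set was dim, and the 8 arrays lay close together. The difference was -0.20 ± 0.13 at 10 weeks (limma adjusted p = 0.42) and -0.01 ± 0.13 at 4 weeks (adjusted p = 0.999). Of 13 other genes of base excision repair 2 were lower at 10 weeks and 0 higher, with a median of 0.14, where 6.89% of all genes were lower. Ung, uracil DNA glycosylase, read 4.38 and 5.27 in 10-week KO hearts, against 6.05 and 6.69 in 10-week WT hearts, and fell by 1.54 ± 0.28, 2.91-fold (adjusted p = 0.00672). Polb, the polymerase of this repair path, fell by 0.82 ± 0.19 (adjusted p = 0.02). The call of Polb was not kept without KO replicate 1 of 10 weeks (-0.60, adjusted p = 0.143) or WT replicate 1 (-0.58, 0.0761). Its other probe sets, at means of log2 8.01, 6.36 and 3.47, gave -1.03 ± 0.19, -0.13 ± 0.15 and -0.02 ± 0.15.

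**Figure D2:**
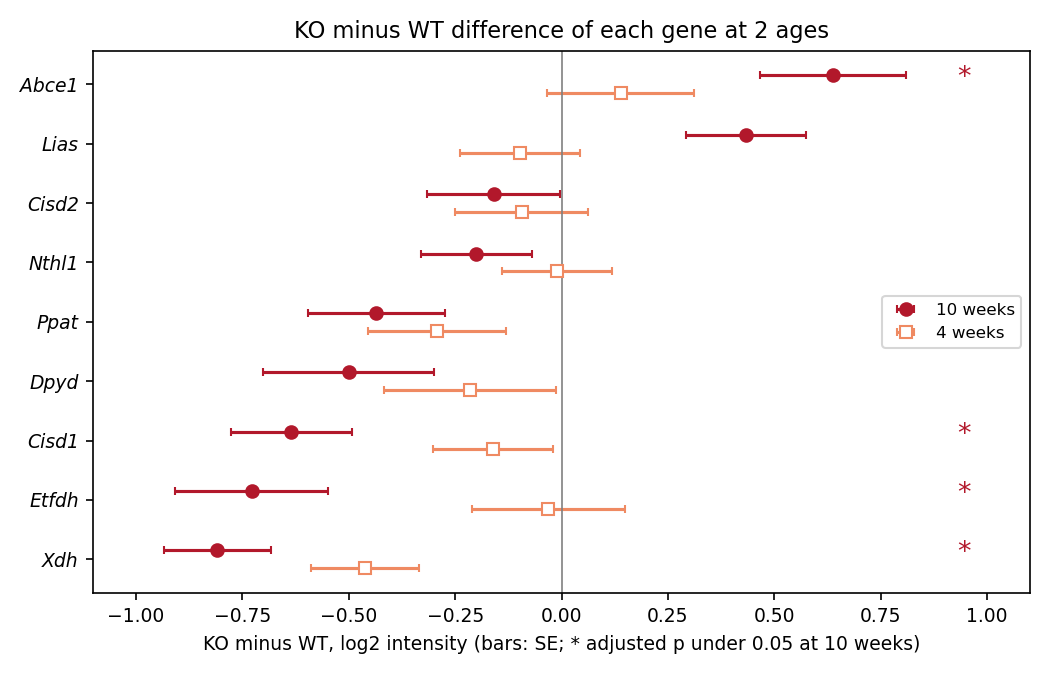
KO minus WT difference of the 9 genes on the log2 scale at 10 weeks (filled circles) and 4 weeks (open squares), with SE; stars mark an adjusted p under 0.05 at 10 weeks. Abce1 stands at 0.64 and Xdh at -0.81 at 10 weeks, and all 4-week differences lie between -0.46 and 0.14.

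**Figure D3:**
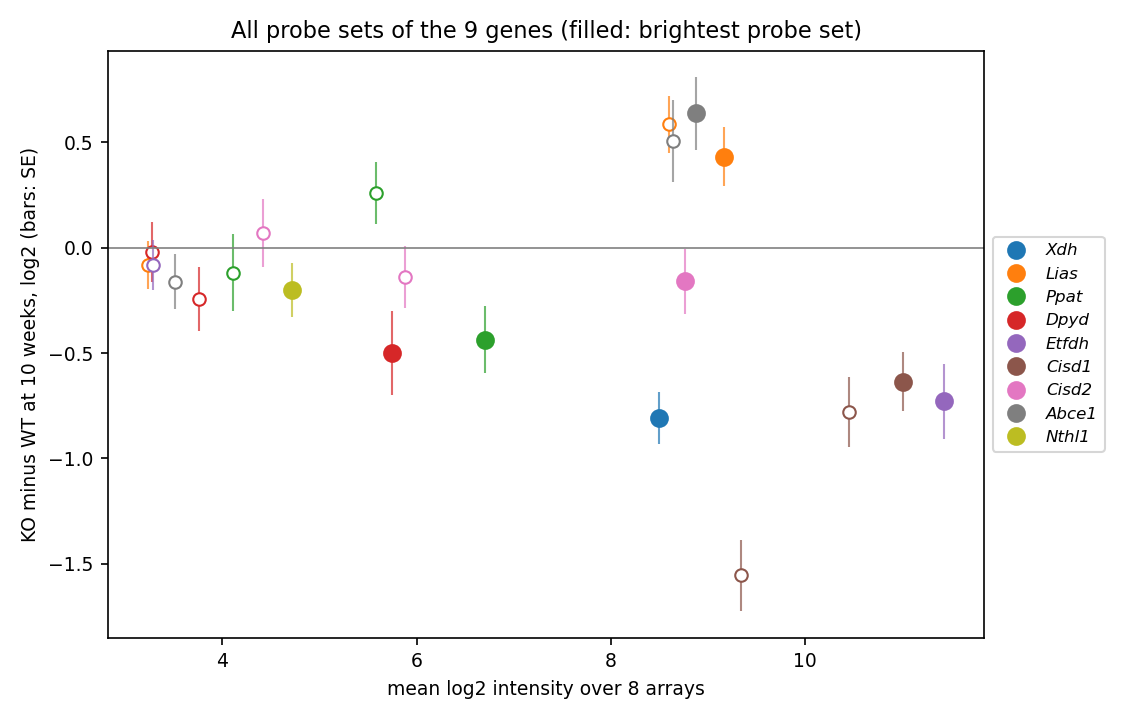
KO minus WT difference at 10 weeks, with SE, against the mean log2 intensity over 8 arrays for all 22 probe sets of the 9 genes; filled points are the brightest probe set of a gene and open points the others. The 4 dimmest probe sets lie between -0.16 and -0.02, and the 3 of Cisd1 run from -0.63 to -1.56.

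The iron-sulfur subunits of the respiratory chain are set beside the 9 genes here. Of 7 cluster-bearing subunits of complexes I to III 5 were lower and 0 higher at 10 weeks, with a median of -0.72: Ndufs8, Ndufs7, Sdhb, Ndufv2 and Uqcrfs1, from -1.12 ± 0.14 to -0.58 ± 0.13. The median at 4 weeks was -0.09, and 0 of the 7 were called. Uqcrfs1 was no longer called without KO replicate 1 of 10 weeks (-0.48, adjusted p = 0.112) or with quantile normalization again (-0.40, 0.076), nor Sdhb without KO replicate 2 (-0.67, 0.0688). Whether the 9 genes differed from the subunits was not tested.

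Of 27 further iron-sulfur proteins outside the chain, from aconitase to DNA polymerases and helicases, 4 were lower and 0 higher at 10 weeks, with a median of -0.04. The share of all genes called lower at that age was 6.89%. Rsad2, an interferon-induced radical enzyme also called viperin, fell by 1.21 ± 0.16 (limma adjusted p = 0.0017). Aox1, aldehyde oxidase and a close relative of xanthine dehydrogenase, fell by 1.12 ± 0.15 (adjusted p = 0.00176). Glrx2, a glutaredoxin of mitochondria, fell by 0.76 ± 0.19 (adjusted p = 0.0307). Glrx2 lost its call without any 1 of the arrays except 10-week WT replicate 2, with differences of -0.91 to -0.48, and when its probe sets were averaged (-0.66, adjusted p = 0.0595). The next probe set of Rsad2 gave -0.35 ± 0.16 (adjusted p = 0.269), and the dimmest was called lower when tested singly (0.0143).

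**Figure D4:**
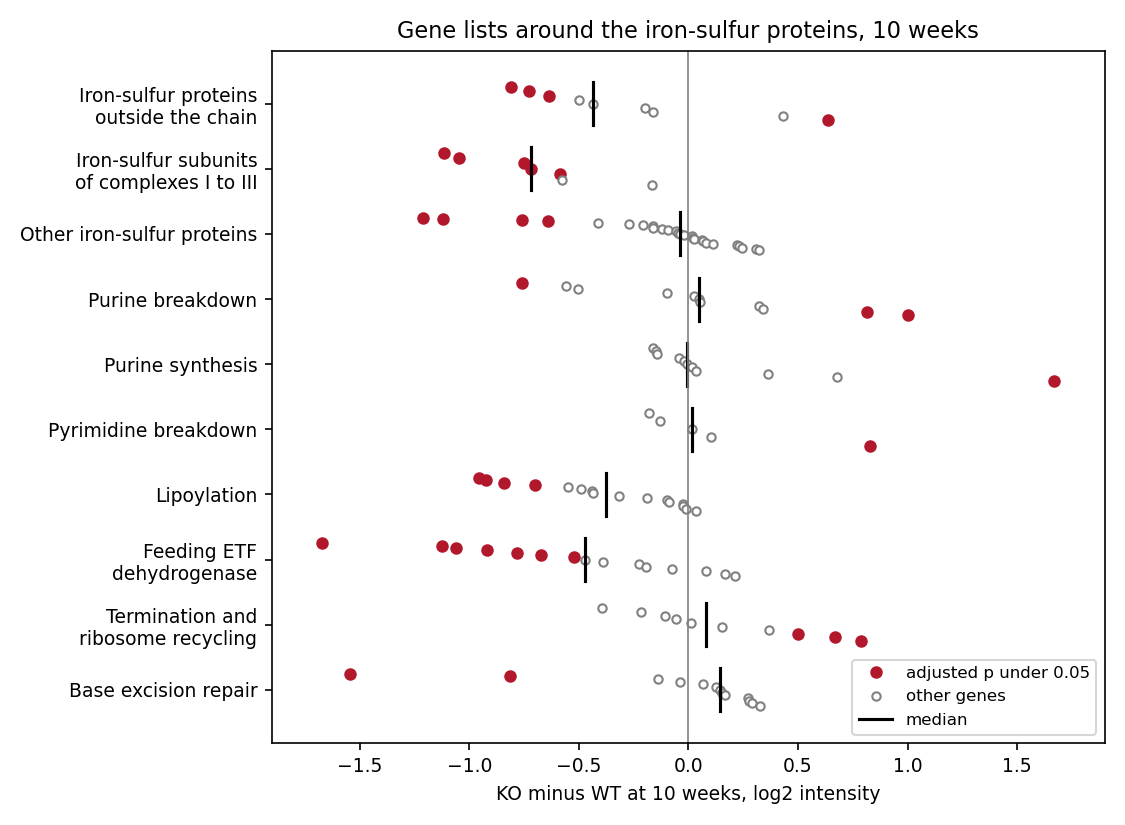
KO minus WT difference at 10 weeks for the 9 genes (top) and for the genes of the other lists, 1 point a gene; filled points passed the test, open points did not, and the bar is the list's median. The medians run from -0.72 for the chain's iron-sulfur subunits to 0.14 for base excision repair, and called genes lie on both sides of 0 for the 9 genes and for purine breakdown.

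Between the ages, Etfdh fell by 0.76 ± 0.18 and Cisd2 by 0.63 ± 0.16 in 10-week KO hearts, against 4-week KO hearts (limma adjusted p = 0.0286 and 0.0344). These were 2 of the 9 genes lower and 0 higher, where 10.5% of all genes were called, 7.07% lower and 3.42% higher. In WT hearts 0 of the 9 were called, and 0.115% of all genes were (0.0495% higher and 0.066% lower). An unadjusted p under 0.05 was found there for 3 of the 9, and for 3285 of all 18193 genes. Cisd2 was at -0.56 ± 0.16 in WT hearts as well (adjusted p = 0.202), and Etfdh at -0.06 ± 0.18 (adjusted p = 0.862). None of the 9 passed the test of the difference of the KO effect between ages, which 2.08% of all genes passed (0.879% higher and 1.2% lower). In that test 3 of the 9 had an unadjusted p under 0.05 (Etfdh, Lias and Cisd1), and so did 2535 of all 18193 genes. The number called between the ages in KO hearts was 0 with any of 4 arrays left out (KO replicate 1 of 10 weeks, KO replicate 2 of 4 weeks and both WT replicates of 4 weeks, each alone). It was 1 without KO replicate 2 of 10 weeks and 4 without either WT replicate of that age.

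Markers of several cell types differed between KO and WT hearts at 10 weeks. Of 12 cardiomyocyte markers 4 were lower and 0 higher at 10 weeks, with 7 differences negative, 5 positive and a median of -0.27. Ryr2, the calcium release channel, was at -1.27 ± 0.25 and Ckm, muscle creatine kinase, at -0.99 ± 0.15. The summed intensity of the 12, to which bright probe sets add most, was 121068 to 132892 in 10-week KO hearts, against 135493 to 153630 in 10-week WT hearts, and 150094 to 151075 in 4-week KO hearts, against 157361 to 157674 in 4-week WT hearts. Of 10 fibroblast markers 7 were higher at 10 weeks, with a sum of 24565 to 24736 in 10-week KO hearts, against 8498 to 10274 in 10-week WT hearts. Of 11 macrophage markers 6 were higher at 10 weeks, with a sum of 8027 to 10075 in 10-week KO hearts, against 4105 to 4735 in 10-week WT hearts. At 4 weeks none of the cardiomyocyte, fibroblast or macrophage markers was called, and the medians were -0.06, 0.29 and 0.04. Of 7 atrial markers 1 was higher (Nppa, 1.04 ± 0.24) and 2 lower (among them Sln, -2.35 ± 0.48) at 10 weeks, with a median of -0.54, and their sum was 23489 to 23741 in 10-week KO hearts, against 16114 to 24291 in 10-week WT hearts. At 4 weeks none of the atrial markers was called, but their median was 1.27 and their sum was 13325 to 28286 in 4-week KO hearts, against 6442 to 9438 in 4-week WT hearts. Of 3 red blood cell markers Slc4a1 was lower at 10 weeks (-1.15 ± 0.15). Of 7 smooth muscle markers 1 was higher at 10 weeks, of 11 proliferation markers 1 was higher and 1 lower, and of 5 adipocyte markers 0 were called. In whole hearts fewer cells of a type and less RNA per cell cannot be told apart, and the part of these shifts in the values above was not tested. 10-week WT replicate 1 also stood apart from the other arrays on the second principal component, which carried 24.3% of the variance.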

How the data were processed

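The deposited values were probe set intensities on the linear scale, for which the submitters' processing notes name GCOS 1.3 and RMA; the order of the steps the authors ran and the RMA version are not given in the sources used here. Log2 was taken here, with no pseudocount and no filter. Array medians were 34.3 to 37.4. 64 control probe sets were left out. 34945 of 45037 probe sets named 1 gene in the platform annotation, and the brightest per gene (mean over 8 arrays) was used, for 18193 genes. All 8 arrays entered a limma 3.58.1 model (R 4.3.3) with a mean for each group (eBayes, 4 residual and 9.33 total degrees of freedom), two-sided, adjusted by Benjamini-Hochberg over all genes. The 2 arrays per group limit precision (median SE 0.145). Each p-value sets a difference against the spread between mice within all 4 groups, moderated by the spread of all genes.

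The 9 genes and all lists were chosen with earlier results of these data known. Named partner genes were up to 3 called per list, by size at 10 weeks; every called one of the chain's subunits could be named. 211 of 229 listed genes were measured. The level of the deleted gene is not reported here. Promoters, for 8 of the 9 genes, are RefSeq's. Motifs were chosen with the genes' results known; the NRF1 core was first searched in its palindromic form, which Etfdh and Cisd1 hold and Ppat does not.

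The alternatives were averaging the probe sets of a gene, shared-sequence probe sets left out, genes with a mean log2 under 6 left out, quantile normalization again, median centring, trend and robust eBayes, only the groups compared, the replicate block, every probe set singly, and each array left out.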

Additional observations from a re-analysis of the deposited data

How the results depend on the processing

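Of the differences at 10 weeks, that of Xdh passed in all 17 alternatives, between -0.90 and -0.71. The number of the 9 genes called at 10 weeks was 4 in the fit reported, 5 with shared-sequence probe sets left out, 2 with probe sets averaged per gene, 1 with only the 10-week groups, and 1 to 4 with single arrays left out. The number was 0 at 4 weeks in every alternative. Between ages it was 0 to 1 for the KO effect, 0 to 4 within KO hearts and 0 to 2 within WT hearts with single arrays left out, and 1 within KO hearts with the mean of probe sets. Ppat at 10 weeks turned to 0.26 with shared-sequence probe sets left out, and its difference between ages to 0.54, or 0.20 with the mean of probe sets. That mean also turned Cisd2 between ages to 0.12 and Etfdh at 4 weeks to 0.0016. With single arrays left out, ranges crossed 0 for Cisd2 (-0.32 to 0.00093 at 10 weeks, -0.25 to 0.061 at 4, -0.23 to 0.095 between ages), Dpyd (-0.56 to 0.13 at 4 weeks, -0.63 to 0.062 between ages), Etfdh (-0.14 to 0.078 at 4 weeks), Nthl1 (-0.11 to 0.095 at 4 weeks) and Ppat (-0.34 to 0.054 between ages). The causes were not tested. Of 24 partner genes named, 14 kept their call without any single array, and 12 in every alternative; 11 lost it with only the 10-week groups, where fewer arrays estimate the spread. Over all genes, 1154 to 3244 were called at 10 weeks with single arrays left out, against 2199 with all, 959 with only the 10-week groups, 3 to 12 at 4 weeks against 5 (13 with only those groups), 40 to 1600 for the KO effect between ages against 379 (211 with median centring), 527 to 3035 between ages within KO hearts against 1908, and 4 to 2946 within WT hearts against 21 (12 with median centring, 45 with trend and robust, 3 with only those groups, 159 with the replicate block). Same-numbered KO and WT arrays deviated together at r = 0.23 at 10 weeks and 0.30 at 4 weeks across genes. The labels do not say that the numbers pair mice, and with the replicate block 4 of the 9 genes were called at 10 weeks and 0 at 4 weeks, while 751 of all genes were called for the difference between ages.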

Other observations

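Genes whose mean-centred log2 profile over the 8 arrays lay nearest to that of a called gene were taken from all genes, by the root-mean-square distance. Nearest to Etfdh were Uqcrc1, a core subunit of complex III (0.0806), Acat1, a mitochondrial thiolase (0.0806), and Retsat, a retinol saturase (0.0862). Nearest to Cisd1 were Bod1 (0.048), Fnta, a farnesyltransferase subunit (0.0604), and Snrpf, of the spliceosome (0.0609). Nearest to Abce1 were Kri1, of ribosome biogenesis (0.0603), Stat6 (0.0614) and Set (0.0678). Nearest to Xdh, and further off, were Penk, the enkephalin precursor (0.126), P4ha2, a collagen prolyl hydroxylase (0.133), and Fas, a death receptor (0.142). All arrays enter these distances, including the 10-week KO arrays that chose the 4 genes, so they are descriptions without a test.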
